A study of Camelus bactrianus with 10 samples.

Results

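The miR-26, miR-29 and miR-101 families are 3 groups of microRNAs (miRNAs), short RNAs that guide Argonaute proteins to complementary sites in messenger RNAs and lower their output. They were examined here in exosomes, which are vesicles shed by cells, purified from the plasma of Bactrian camels. Members were taken by name: all entries of the deposited table named miR-26a, miR-26b, miR-29a, miR-29b, miR-29c, miR-101 or miR-101a, with either arm of the hairpin and any change at the ends. This gave 16 of the 2581 small RNAs listed, 5 of miR-26, 8 of miR-29 and 3 of miR-101, under 15 mature names. No entry was named miR-101a. Small RNA was sequenced from 5 thin camels, which weighed 402.6 to 421.2 kg, and from 5 normal camels, which weighed 452.3 to 492.8 kg. Each library came from a different animal, and no treatment of the camels is named; their age and sex are not given in the sources used here. Thin stands for the submitters' own grouping, and the weights describe that grouping.

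A mature miRNA is cut from 1 arm of a hairpin, written 5p or 3p, and the arm that is loaded into Argonaute is usually far more abundant than its partner. Bases 2 to 8, the seed, carry most of the target choice, so members of a family that share a seed share most predicted targets. MiR-26 is encoded within genes of the CTDSP phosphatase family and in human and mouse cells represses cyclins and the methyltransferase EZH2. MiR-29 represses collagens, the DNA methyltransferases DNMT3A and DNMT3B and the survival protein MCL1. MiR-101 is best known as a repressor of EZH2. All 3 families have been described as lowered in human liver tumours, which the title of the series is about; no value here bears on their action in a tumour.

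The most abundant entry of each leading arm is shown to compare the seeds and the few bases by which members differ. Sequences are those of the deposited table, written 5′ to 3′ as DNA, with the seed in capitals.
miR-26a-5p: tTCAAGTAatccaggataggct
miR-26b-5p: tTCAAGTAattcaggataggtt
miR-29a-3p: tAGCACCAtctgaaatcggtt
miR-29c-3p: tAGCACCAtttgaaatcggtt
miR-29b-3p: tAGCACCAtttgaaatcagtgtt
miR-101-3p: tACAGTACtgtgataactgaat

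Counted from 1 at the 5′ end, miR-26a-5p and miR-26b-5p differed at 2 of 22 bases, by C11T and C21T. MiR-29a-3p and miR-29c-3p differed only by C10T, just outside the seed. MiR-29c-3p and miR-29b-3p differed by G18A and T21G over 21 shared bases, and miR-29b-3p ran 2 bases further. The seed of miR-26 was held by 4 of the 2581 listed small RNAs, 2 of them members and 2 under the opossum name miR-26-5p. The seed of miR-29 was held by 4, all members. The seed of miR-101 was held by 2, miR-101-3p and an entry under the mouse name miR-101c that differed from it by A21T and T22C. The partner arms carry other seeds, shown here because they are read separately below.
miR-29c-5p: tGACCGATttctcctggtgtt
miR-26b-3p: cCTGTTCTccattacttggctc
miR-26a-2-3p: cCTATTCTtgattacttgtttc

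The name and the sequence of an entry pointed to different members of the list above. The entry named after the platypus miR-29a-3p, shown for comparison with the list above, holds all 21 bases of miR-29c-3p and 3 more.
platypus-named miR-29a-3p: tAGCACCAtttgaaatcggttaaa
It was between 0 and 16.2 normalized counts and was above 0 in 6 libraries, so that it added little under either name. Because members differ by so few bases, their separate values are uncertain to the extent that reads were divided between them. The values of miR-26a-5p, miR-26b-5p, miR-29a-3p, miR-29c-3p, miR-29b-3p and miR-101-3p held fractions of a read in some libraries. Which entries shared those reads was not tested.

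The libraries held an estimated 252631 to 2237451 reads of listed small RNAs. Normal 4, normal 5 and thin 4 were the deepest, at 2156387, 2237451 and 1469137 reads, and the other 7 held at most 800041. A small RNA is covered by 1 read from end to end, so levels of different miRNAs were compared without a correction for length. How evenly different sequences were captured was not tested, so ranks and orders between miRNAs are those of the deposited values. Red blood cell miRNAs (5 of 5 names found) made up 7.73% to 14.9% of thin libraries and 14.7% to 28.5% of normal libraries. Hepatocyte miRNAs (3 of 4 names found, among them miR-122-5p) made up 1.36% to 9.78% of thin and 3.14% to 13.3% of normal libraries. Platelet miRNAs (4 of 4 names) made up 5.57% to 9.77% of thin and 4.52% to 7.09% of normal libraries, and leukocyte miRNAs (5 of 5 names) 1.81% to 6.10% of thin and 2.50% to 4.17% of normal libraries. Muscle miRNAs (4 of 5 names) were at most 0.139% of any library. With libraries rescaled without the red blood cell miRNAs, 0 members passed the test below, as without this rescaling. That count cannot show the part of red blood cells in the results, and the part of any cell type was not tested. More vesicles from a cell type and more of a miRNA in each vesicle cannot be told apart in plasma.

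The 3 families together made up 4.50% to 8.01% of thin libraries and 3.94% to 7.76% of normal libraries. MiR-26 was the largest, at 4.61 ± 1.17% of thin and 4.20 ± 1.38% of normal libraries (SD, n = 5 each). Its summed normalized counts went the other way, at 28970 ± 8735 in thin and 29979 ± 10680 in normal libraries. The library totals were 532999 to 692847 normalized counts in thin and 655636 to 757352 in normal camels, so percents and normalized counts differ in scale. MiR-29 made up 1.15 ± 0.38% of thin and 0.70 ± 0.32% of normal libraries. MiR-101 made up 0.70 ± 0.26% of thin and 0.47 ± 0.11% of normal libraries. The ranges of the groups overlapped for each family, and these sums were not tested.

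Levels within the families were very uneven. MiR-26a-5p ranked 9 among all listed small RNAs by mean level, miR-26b-5p 14, miR-29a-3p 30 and miR-101-3p 36, while miR-29c-3p ranked 128 and miR-29b-3p 167. MiR-26a-5p was above miR-26b-5p, and miR-26b-5p above miR-29a-3p, in 10 of 10 libraries. MiR-29a-3p was above miR-101-3p in 7 of 10, so these neighbours were not separated in every animal. MiR-101-3p was above miR-29c-3p, and miR-29c-3p above miR-29b-3p, in 10 of 10. MiR-29a-3p supplied 88.8 ± 2.84% of the summed miR-29 family in thin and 90.0 ± 2.29% in normal libraries.

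**Figure D1:**
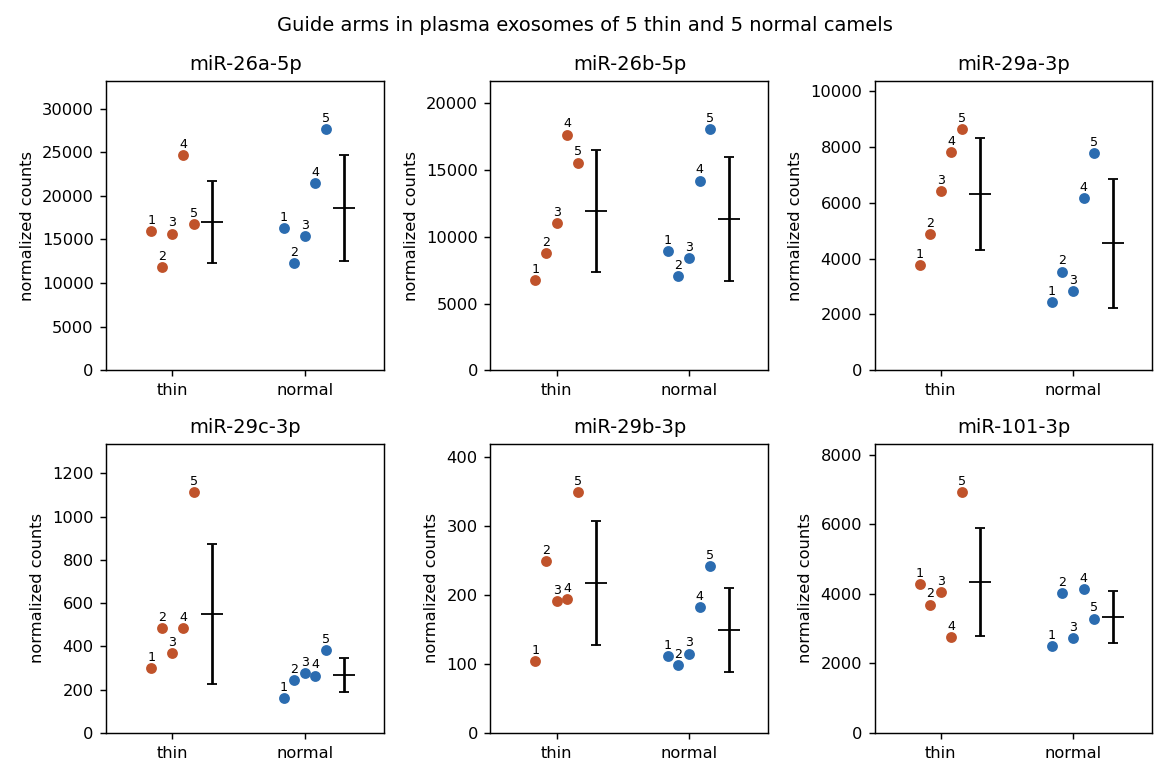
Normalized counts (vertical axes, linear from 0) of the 6 leading arms in each library, thin left of normal, with the replicate number at each point and the mean ± SD beside it. The groups overlap in every panel; thin 5 stands highest for miR-29a-3p, miR-29c-3p, miR-29b-3p and miR-101-3p.

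The comparison of thin with normal camels asked whether the level of these miRNAs in plasma exosomes differed with body condition. None of the 9 tested members passed: limma called 0 of 9 at an adjusted p of 0.05, where 9 of 468 tested small RNAs, or 1.92%, passed (1.28% higher and 0.641% lower in thin camels). At an unadjusted p under 0.05 there was 1 member, miR-29c-3p, higher in thin camels, beside 5.77% of all tested that were higher and 11.8% in either direction. The log2 fold change was above 0 for 5 of 9 members and for 49.4% of all tested. The median log2 fold change was 0.08 over the 9 members and -0.01 over all 468. No member had groups that did not overlap, which 3.63% of all tested had. Summed by mature name, 0 of 9 member names passed, beside 1.64% of 428 names. Of the names, 1 of 9 was higher at an unadjusted p under 0.05, beside 5.84%, and 5 of 9 had a log2 fold change above 0, beside 49.1%. A member was tested if it reached 10 normalized counts in at least 5 libraries; the other 7 members did not, and their highest value in any library was 41.3.

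**Figure D2:**
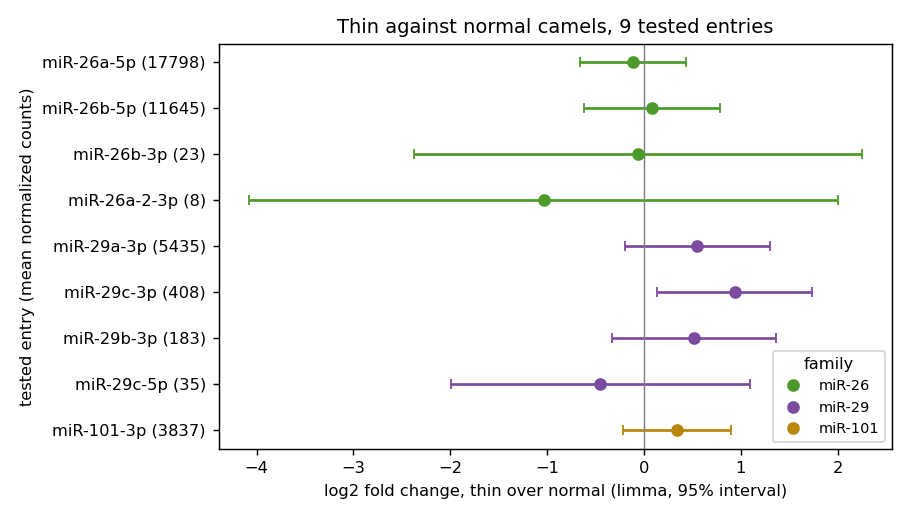
Log2 fold change of thin over normal camels for the 9 tested members (points) with the 95% interval from limma (bars); the mean normalized count is given after each name. Of the 9 intervals only that of miR-29c-3p lies on 1 side of 0, before adjustment for the 468 tests, and the intervals of the scarce partner arms are the widest.

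MiR-29a-3p, the main member of its family in these libraries, was 3768, 4889, 6432, 7823 and 8646 normalized counts in thin 1 to 5, against 2455, 3541, 2839, 6179 and 7776 in normal 1 to 5. All 5 thin libraries were above the median of the normal ones, but normal 4 and normal 5 lay among the thin values. Its log2 fold change was 0.55 ± 0.35 (SE), with a 95% interval of -0.20 to 1.30 (limma adjusted p = 0.603). Leaving out normal 4 and normal 5 therefore separates the groups by construction. The remaining 3 normal libraries reached at most 3541, below all 5 thin ones, and the log2 fold change was 1.05 (limma adjusted p = 0.177). Normal 4 and normal 5 were the deepest libraries, and without them and thin 4 it was 0.96 (adjusted p = 0.339). The part of depth in this was not tested. It was smaller, at 0.36, without normal 1 (adjusted p = 0.711) and, at 0.29, with libraries weighted by quality (adjusted p = 0.604).

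MiR-29c-3p differs from miR-29a-3p at 1 base and comes from another hairpin. It was 299, 486, 368, 483 and 1115 normalized counts in thin 1 to 5, against 163, 246, 277, 265 and 382 in normal 1 to 5. Every thin library was above the median of the normal ones and 3 were above all of them. Its log2 fold change was 0.93 ± 0.37 (SE), with a 95% interval of 0.14 to 1.73, and it did not pass over all tested small RNAs (limma adjusted p = 0.290). Thin 5 held more than any other thin library, and leaving it out gave a log2 fold change of 0.64 (adjusted p = 0.526).

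MiR-29b-3p, made in mammals from the same transcripts as miR-29a and miR-29c, was the scarcest of the leading arms. It was 104, 249, 191, 194 and 349 normalized counts in thin 1 to 5, against 111, 98.6, 115, 182 and 241 in normal 1 to 5. Thin 1 lay with the lower normal libraries, and normal 5 with the higher thin ones. Its log2 fold change was 0.52 ± 0.39, with a 95% interval of -0.33 to 1.37 (limma adjusted p = 0.681). Without thin 5, its highest library, it was 0.32 (adjusted p = 0.771), and quality weights also gave 0.32.

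The partner arms of miR-29 were near the limit of these libraries. MiR-29c-5p was 8.22, 10.5, 29.4, 77.4 and 34.9 normalized counts in thin 1 to 5, against 10.1, 32.9, 39.8, 53.5 and 51.1 in normal 1 to 5. The lowest of these stood for an estimated 5 reads, and the 3 deepest libraries held the 3 highest values. On the log2 scale thin minus normal was -0.45 ± 0.71 (SE; limma adjusted p = 0.840). This ran from -0.87 without thin 4 to -0.096 without thin 1, and was -0.011 without normal 4 and normal 5. MiR-29a-5p was listed above 0 in 3 thin and 2 normal libraries, at most 41.3 in thin 5. The 5p arms of the 2 miR-29b hairpins were each above 0 in 4 libraries, at most 12.1.

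MiR-101-3p, the leading arm of a miRNA known in human cells for repressing EZH2, was 4284, 3686, 4049, 2744 and 6929 normalized counts in thin 1 to 5. In normal 1 to 5 it was 2501, 4025, 2725, 4139 and 3284. Thin 5 and thin 1 were above all normal libraries, while thin 4 lay near the lower end of the normal range. The log2 fold change was 0.34 ± 0.26, with a 95% interval of -0.22 to 0.90 (limma adjusted p = 0.681). Without thin 5 it was 0.16 (adjusted p = 0.824). Its 5p arm was above 0 in 1 thin and 3 normal libraries, at most 20.8, and an entry for the 5p side of the second miR-101 hairpin was above 0 only in normal 5, at 1.66.

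MiR-26a-5p, which in human and mouse cells slows the cycle by repressing cyclins, was 15941, 11872, 15675, 24694 and 16740 normalized counts in thin 1 to 5. In normal 1 to 5 it was 16271, 12328, 15361, 21444 and 27651. The 3 highest values were those of the 3 deepest libraries, normal 5, thin 4 and normal 4, and the other 7 lay between 11872 and 16740 whatever the group. The log2 fold change was -0.12 ± 0.25, with a 95% interval of -0.66 to 0.43 (limma adjusted p = 0.870), so that a change of 2-fold in either direction lay outside the interval. It was 0.037 without the 3 deepest libraries and 0.071 with equal library totals, so its sign was not fixed.

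**Figure D3:**
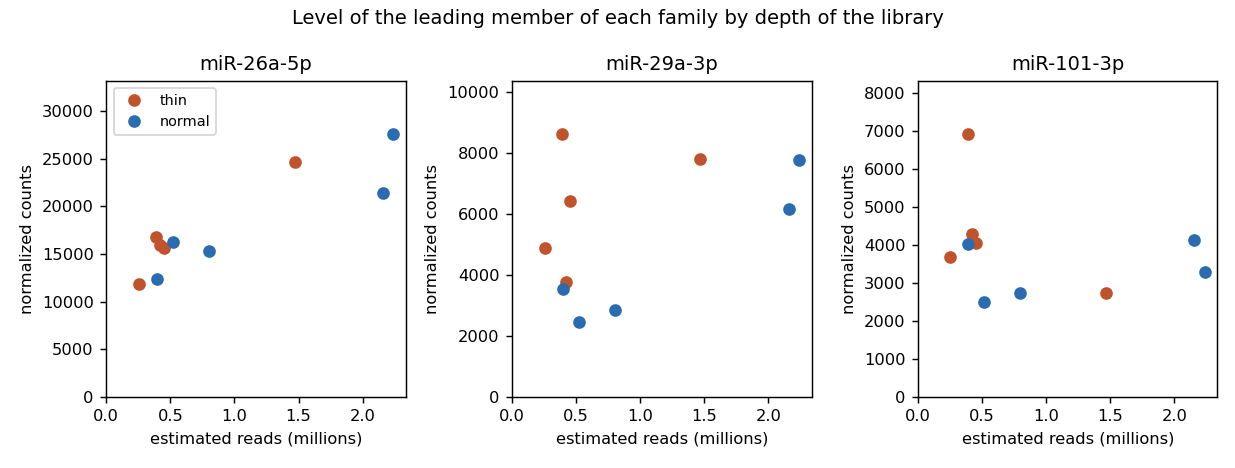
Normalized counts of the leading member of each family (vertical axes) against the estimated reads of the library (horizontal axes), 1 point per library. For miR-26a-5p the 3 deepest libraries lie above the other 7 in both groups; for miR-29a-3p and miR-101-3p the highest point is thin 5, with an estimated 389031 reads.

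MiR-26b-5p, which has the same seed, was 6748, 8794, 11008, 17662 and 15563 normalized counts in thin 1 to 5, against 8943, 7043, 8414, 14211 and 18065 in normal 1 to 5. Thin 4, thin 5, normal 4 and normal 5 were the highest, so the high libraries came from both groups. The log2 fold change was 0.08 ± 0.32, with a 95% interval of -0.62 to 0.78 (limma adjusted p = 0.963). It changed sign with thin 4, thin 5, normal 2 or normal 3 left out.

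The partner arms of miR-26 were scarce. MiR-26b-3p was 0, 23.2, 29.4, 55.3 and 19.0 normalized counts in thin 1 to 5, against 6.33, 8.65, 10.4, 20.5 and 59.0 in normal 1 to 5. Thin 4 and normal 5 were far above the rest, and the fold change on the log2 scale was -0.06 ± 1.06 (SE; limma adjusted p = 0.988). MiR-26a-2-3p was 0, 10.5, 0, 13.8 and 0 in thin 1 to 5, against 0, 0, 13.3, 13.9 and 28.2 in normal 1 to 5. The fitted log2 fold change of miR-26a-2-3p was -1.03 ± 1.40 (SE; limma adjusted p = 0.814). A 0 in the table cannot be told from a few reads, so the fitted values of both arms depend on the added pseudocount. MiR-26a-1-3p, from the other miR-26a hairpin, was above 0 only in normal 4, at 5.28. The mean of miR-26b-3p over all 10 libraries of both groups was 0.199% of that of miR-26b-5p. For miR-29c-5p it was 8.52% of the mean of miR-29c-3p.

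Ratios inside a library cancel its scaling, apart from the pseudocount of 1 added to each value, which matters for the scarce arms, and 4 of them were compared. The test was an exact permutation test, two-sided, of every division of the 10 libraries into 5 and 5, and it can give no p below 0.00794. The ratio of miR-26a-5p to miR-26b-5p was 2.36, 1.35, 1.42, 1.40 and 1.08 in thin 1 to 5, against 1.82, 1.75, 1.83, 1.51 and 1.53 in normal 1 to 5. Thin 1 was the highest of all and the other 4 thin libraries were the lowest, so the groups overlapped through 1 animal. The mean log2 ratio was 0.55 ± 0.42 in thin and 0.75 ± 0.14 in normal libraries (SD, n = 5 each; exact p = 0.341, adjusted p = 0.455 over the 4 ratios). Leaving out thin 1, the 1 library through which the groups overlapped, separates them by construction. The difference was then -0.37 (exact p = 0.00794, adjusted p = 0.0317). That p is the smallest this exact test can give, and it was fixed by the omission. Thin 1 was left out only as 1 of 10 such omissions, with thin 5 left out the difference was -0.083 (exact p = 0.690), and with normal 4 and normal 5 left out it was -0.29 (exact p = 0.339).

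The ratio of miR-29a-3p to miR-29c-3p had a mean log2 of 3.61 ± 0.48 in thin and 4.0 ± 0.46 in normal libraries (exact p = 0.222, adjusted p = 0.444; SD, n = 5 each). MiR-29a-3p was thus 7.76 to 17.4 times as abundant as miR-29c-3p in thin and 10.3 to 23.3 times in normal libraries. The difference of -0.39 in the mean log2 ratio was -0.22 without thin 5 (exact p = 0.452), -0.25 without normal 4 (exact p = 0.421) and -0.089 without normal 4 and normal 5 (exact p = 0.750). The ratio of miR-29a-3p to miR-29b-3p had a mean log2 of 4.90 ± 0.43 in thin and 4.86 ± 0.31 in normal libraries (exact p = 0.865, adjusted p = 0.865), and the means differed by much less than the spread.

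Arm balance could be compared only for miR-29c, the 1 hairpin with both arms above 0 in all 10 libraries. The 5p arm was at a median of 3.13% of the 3p arm in thin libraries, the lowest at 2.17%, against a median of 13.4% in normal libraries, the lowest at 6.23%. The ranges overlapped. The log2 ratio averaged -4.32 ± 1.17 in thin and -2.94 ± 0.58 in normal libraries, a difference of -1.39 ± 0.58 (SE; exact p = 0.0714, adjusted p = 0.286). In 2 thin libraries the 5p arm rested on an estimated 5 reads, and thin 4, the deepest thin library, had the highest thin ratio. The part of depth in this difference was not tested.

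**Figure D4:**
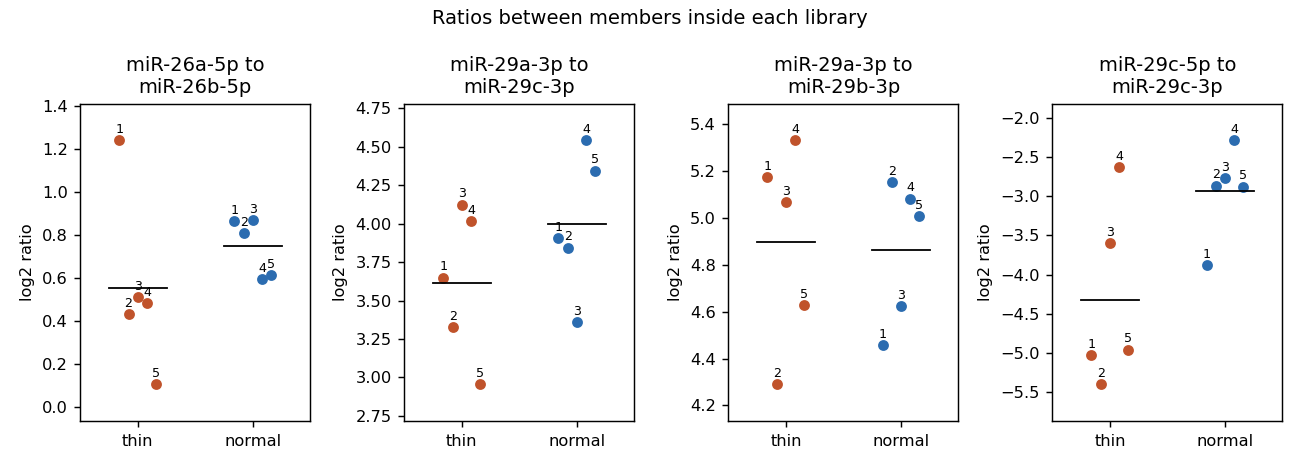
Log2 ratio between 2 members inside each library (vertical axes), thin left of normal, with replicate numbers and a line at each mean. For miR-26a-5p to miR-26b-5p, 4 thin libraries lie below all 5 normal ones and thin 1 above them; the groups overlap in every panel.

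Members of 1 family varied together over the 10 libraries. Pearson's r of the log2 levels was 0.82 between miR-26a-5p and miR-26b-5p, 0.85 between miR-29a-3p and miR-29b-3p, 0.84 between miR-29c-3p and miR-29b-3p and 0.76 between miR-29a-3p and miR-29c-3p. It was also 0.84 between miR-29a-3p and miR-26b-5p, of different families, and -0.20 between miR-101-3p and miR-26a-5p. These values describe 10 libraries of 2 groups that share depth and scaling, and near-identical members may share reads.

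Among 458 tested small RNAs outside the 3 families, miR-181a-5p (r = 0.91), miR-361-5p (0.87) and an entry of miR-24-2-5p (0.86) were most like miR-26a-5p. MiR-181a-5p was 545 to 1212 normalized counts in thin and 784 to 1790 in normal libraries, and the 3 deepest libraries held its highest values, as they did for miR-26a-5p. An entry of miR-339-5p (0.92), miR-7-1-3p (0.85) and a predicted small RNA (0.83) were most like miR-29a-3p. Those most like miR-101-3p were an entry of miR-203 (0.78), miR-497-5p (0.69) and miR-660-5p (0.68), and r was lower for these than for the other families. The median r over the 458 was 0.13 for miR-26a-5p, 0.02 for miR-29a-3p and 0.03 for miR-101-3p.

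Other miRNAs described as restraining liver tumours were set beside the 3 families as a list of 22 names, all found, of whose 33 entries 25 were tested. None passed (limma, 0 of 25, beside 1.92% of all tested), and the median log2 fold change was -0.21. At an unadjusted p under 0.05 there were 7 entries (beside 11.8% of all tested), 4 higher and 3 lower in thin camels. The higher ones were miR-223-3p (log2 fold change 0.96), miR-34a-5p (2.60), miR-375 (1.74) and miR-22-3p (0.48). MiR-223-3p is a myeloid miRNA that is also in the platelet list, and its scarcer tested entries had -1.84 and 0.62. MiR-34a-5p, a p53 target, was scarce, at 33.8 ± 19.9 normalized counts in thin and 8.55 ± 8.56 in normal libraries (SD). The SE of its log2 fold change was 1.01. The lower ones were let-7b-5p, let-7a-5p and let-7f-5p, of a family that restrains growth, with -0.68, -0.43 and -0.44. Their adjusted p was between 0.157 and 0.405.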

How the data were processed

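Exosomes were pelleted from plasma by ultracentrifugation, RNA was extracted with a mirVana kit, and TruSeq small RNA libraries were sequenced on an Illumina HiSeq instrument, per the labels' protocols. The ACGT101-miR program removed repeats, other RNA classes and poor reads, per the labels' protocols. The mapping, miRBase version and normalization are not given in the sources used here. In the labels, the protocol text speaks of fewer libraries than the 10 samples and columns; this was not settled. The deposited values are a signal that the authors' column headers call normalized counts, 1 column per camel. No coordinates were used.

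Values in a library were multiples of 1 step or fractions of it. Taking 1 read as the step that makes them multiples of 0.5 (97.3% to 98.8% of values above 0, tolerance 0.02), the reads of a predicted small RNA summed over the libraries equalled the number ending its name, within 0.5 reads, for 1174 of 1612. As 85.5% to 88.9% were whole reads, no count test was run, and estimated reads only describe depth.

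Values were taken as log2(value + 1), with a pseudocount of 1, and 468 small RNAs that reached 10 in 5 or more libraries were tested. The model, with group alone, was fitted by limma 3.58.1 (trend on, R 4.3.3). The fold change is thin over normal on that scale, and for scarce small RNAs its size and sign can depend on the pseudocount. That of miR-26b-3p was -0.23 with a pseudocount of 0.5 and 0.17 with 5. Benjamini-Hochberg adjustment ran over all 468. The fixed design also allowed for raw counts, which the table does not hold. The script was tested on simulated data. Ratios used Python 3.11.15 with numpy 2.4.6 and pandas 2.3.3. Alternatives changed the pseudocount, filter, scaling, prior, weights, block and libraries. Named were all members, with values per library for the most abundant entry of each tested arm, and for the leading member of each family the 3 small RNAs most like it; entries of the other list named by unadjusted p were chosen after their values were seen. The members and lists were chosen with earlier results of these data known.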

Additional observations from a re-analysis of the deposited data

Results flagged for a closer look

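In 32 groups of 5 libraries (9 tested members, 4 ratios and 3 family sums, thin and normal each), 2 held a library far from the other 4 by Dixon's criterion. Chance alone gives about 1 in 20 if values are normally distributed, which was not tested. Members and sums were examined as normalized counts and ratios as log2 values. Whether the 2 flags hold on the log2 scale of the fits was not tested. MiR-29c-3p was 1115 normalized counts in thin 5, against 299 to 486 in the other thin libraries. MiR-26b-3p was 59.0 in normal 5, against 6.33 to 20.5 in the other normal libraries.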

How the results depend on the processing

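The count of 0 members passing held in all 22 alternatives for entries and for mature names, with a smallest adjusted p of 0.177 for entries. Over all small RNAs the count was 9, and 15 with no filter, 4 with limma without trend, 14 with sample quality weights, 3 without normal 4 and normal 5, 5 without the 3 deepest libraries and 6 to 14 with 1 library left out, the 14 without thin 1. The list of other miRNAs gave 2 calls with no filter (miR-223-3p and miR-122-5p), 1 without the 3 deepest libraries (miR-375, log2 fold change 2.92) and 0 to 1 with 1 library left out (let-7b-5p without thin 1); the cause was not tested. MiR-29a-3p, miR-29b-3p, miR-29c-3p and miR-101-3p kept a positive log2 fold change in all 22, of 0.29 to 1.05, 0.32 to 0.91, 0.64 to 1.15 and 0.16 to 0.61 in that order. That of miR-26a-5p turned to 0.071 with equal library totals, 0.18 without normal 4 and normal 5 and 0.037 without the 3 deepest, and ran from -0.26 to 0.042 with 1 library left out. MiR-26b-5p turned to -0.15 with sample quality weights and ran from -0.083 to 0.27 with 1 left out. MiR-26b-3p turned to 0.17 with a pseudocount of 5, 0.12 with equal totals and 0.71 without normal 4 and normal 5, and ran from -0.54 to 0.92 with 1 left out. Equal library totals moved the median of all small RNAs by 0.18 on the log2 scale, and miR-29c-3p then had 1.12 and miR-29a-3p 0.74. The log2 ratio of miR-26a-5p to miR-26b-5p differed by -0.37 to -0.083 with 1 left out. It passed without thin 1 alone, an omission that separates the groups by construction. The log2 ratio of miR-29a-3p to miR-29b-3p differed by -0.075 to 0.18, changing sign in 5 of 10. The difference in miR-29a-3p to miR-29c-3p was -0.55 to -0.089 and that in the arms of miR-29c -1.81 to -1.12 over the alternatives run, none passing, and the family sums moved by less than 1 SD between libraries. The filter removed the scarce partner arms in some alternatives, so miR-26a-2-3p had a value in 13, and at an estimated 5 reads in the shallow libraries their changes were not detectable unless large.

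Whether replicate numbers pair the libraries was not settled. The correlation of deviations between same-numbered libraries was 0.18, 0.25, 0.03, 0.52 and -0.20. Of the thin libraries, 2 of 5 correlated best with their own number. With a replicate block the count over all small RNAs was 9 and that of members 0. The unadjusted limma p fell from 0.0254 to 0.00842 for miR-29c-3p (adjusted p = 0.188). It fell from 0.137 to 0.0295 for miR-29a-3p (adjusted p = 0.343). It rose from 0.211 to 0.242 for miR-101-3p and from 0.474 to 0.492 for miR-26a-2-3p. Chosen after seeing the data, rescaling without the red blood cell markers left 0 members passing and miR-29c-3p at 0.95, and counting the platypus-named entry under miR-29c-3p gave 0.91.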

Other observations

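An entry under the opossum name miR-26-5p held the 22 bases of miR-26a-5p and 2 more. It was 23.0, 10.5, 20.1, 32.3 and 0 normalized counts in thin 1 to 5, against 29.1, 10.4, 10.4, 28.1 and 11.9 in normal 1 to 5. The entries under the mouse name miR-101c were at most 6.93 in any library.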
